A study of Homo sapiens with 9 samples.

Results

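GCH1 and 5 further genes of tetrahydrobiopterin synthesis and recycling were followed over all 9 arrays of a study of PC3, a cell line established from a human prostate cancer. The genes are GCH1, GCHFR, PTS, SPR, QDPR and PCBD1, and every probe whose platform gene symbol is one of them was taken, 10 of the 47323 probes on the array. They were picked because GCH1 was high on UBE2C siRNA replicates 2 and 3 and not on replicate 1, so the values of UBE2C siRNA against control siRNA are given as a description with no test. The cells received 50 nM siRNA with the HiPerfect reagent, and expression was measured 48 h later on Illumina bead arrays. There were 3 arrays with the AllStars negative control siRNA, 3 with a pool of 4 siRNAs against MELK, a protein kinase of dividing cells, and 3 with a pool of 4 against UBE2C, a ubiquitin-conjugating enzyme that serves the anaphase-promoting complex. All groups were transfected, no untransfected cells were included, and the pools and the control siRNA were bought from different suppliers, so an effect of the pools' design or source cannot be told apart from the knockdowns where both moved alike. Whether the 3 arrays of a group stem from independent cultures is not in the labels, and the p-values below therefore reflect array-to-array spread that may be technical.

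Tetrahydrobiopterin is a cofactor of the aromatic amino acid hydroxylases, the nitric oxide synthases and the alkylglycerol monooxygenase. GCH1 (GTP cyclohydrolase 1) converts GTP into dihydroneopterin triphosphate in the first and rate-limiting step, PTS (6-pyruvoyltetrahydropterin synthase) takes the second step and SPR (sepiapterin reductase) finishes the cofactor. GCHFR encodes the feedback regulatory protein that binds GCH1, and PCBD1 (a carbinolamine dehydratase) and QDPR (dihydropteridine reductase) return the used cofactor to its active form. In many cell types GCH1 transcript is induced by inflammatory cytokines, and the cofactor is also known as a radical-trapping antioxidant that protects cells from ferroptosis.

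Upstream sequence is shown for PTS, whose probes were higher on every knockdown array than on every control array, for SPR, the next enzyme, and for GCHFR, the partner protein of GCH1. Each run holds the 250 bases before the annotated gene start in RefSeq, build GRCh38.p14, plus strand, with GC boxes (GGGCGG) and CCAAT boxes, read on both strands, in capitals. The windows are chr11:112226178-112226427 for PTS, chr2:72887158-72887407 for SPR and chr15:40763818-40764067 for GCHFR.
PTS: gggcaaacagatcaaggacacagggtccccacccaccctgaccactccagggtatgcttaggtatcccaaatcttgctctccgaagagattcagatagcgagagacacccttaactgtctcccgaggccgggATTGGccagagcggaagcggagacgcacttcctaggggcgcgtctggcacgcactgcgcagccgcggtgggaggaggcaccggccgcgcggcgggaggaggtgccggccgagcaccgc
SPR: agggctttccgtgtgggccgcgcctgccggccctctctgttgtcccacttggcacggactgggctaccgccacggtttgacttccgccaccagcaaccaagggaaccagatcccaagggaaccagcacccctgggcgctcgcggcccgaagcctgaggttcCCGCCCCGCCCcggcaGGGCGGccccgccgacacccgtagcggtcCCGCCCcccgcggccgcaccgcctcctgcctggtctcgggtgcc
GCHFR: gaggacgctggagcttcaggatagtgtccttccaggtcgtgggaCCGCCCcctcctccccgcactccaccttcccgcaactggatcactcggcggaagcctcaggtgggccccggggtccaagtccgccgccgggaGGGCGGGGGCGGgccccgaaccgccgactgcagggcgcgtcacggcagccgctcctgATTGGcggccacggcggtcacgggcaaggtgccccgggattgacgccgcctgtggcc
The PTS window held 1 CCAAT box, which begins 118 bases before the start, and 0 GC boxes. The SPR window held 4 GC boxes, of which 2 overlap, and 0 CCAAT boxes, and the GCHFR window held 3 GC boxes, of which 2 lie end to end, and 1 CCAAT box. Of 35116 annotated upstream windows of the same length, 42.6% held a GC box and 32% a CCAAT box. A TATA box (TATAAA) and a cAMP response element (TGACGTCA) were in 10.7% and 1.65% of windows and in 0 of the 5 member windows in the table, which also include QDPR and PCBD1. These are matches of letters and not shown binding sites.

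Each array had 16559 to 18661 probes above background, meaning a detection p under 0.01 and a signal above the array's background of 97.7 to 102 intensity units. The targeted transcripts followed the labels on the brighter probe of each gene, on the normalized log2 scale. MELK (probe ILMN_2212909) lay at 9.32 to 9.44 with its siRNA and 10.38 to 10.51 with control siRNA. UBE2C (probe ILMN_2301083) lay at 11.53 to 11.66 against 12.85 to 12.97. A second UBE2C probe, ILMN_2265654, was above background on 4 arrays and overlapped, at 4.50 to 5.30 against 4.68 to 5.43. A second MELK probe, ILMN_1731184, lay at 8.27 to 8.45 with MELK siRNA and 9.36 to 9.64 with control siRNA, but at 8.36 on UBE2C siRNA replicate 1 as well. ILMN_2212909 read 10.94 on that array, above every control, so the MELK probes moved in opposite directions there. The labelled cell type was checked with 6 epithelial and PC3 markers, of which KRT8, KRT19, EPCAM, CD44 and VIM were above background on 9 arrays and KRT18 on 8. Of the luminal prostate markers with a probe, KLK3 and KLK2 were above background on 0 arrays and TMPRSS2 on 9. Of 14 markers of fibroblasts, endothelium and blood, PECAM1 and CD68 were above background on 9 arrays, the fibroblast genes LUM, PDGFRA and COL1A2 on 6, 3 and 2 and the blood gene LYZ on 3. PDGFRB, DCN, VWF, CDH5, KDR, PTPRC, CD3E and HBB were above background on 0. UBE2C siRNA replicate 1 stood apart: its values correlated with those of other arrays at 0.848 to 0.877 across the kept probes, against 0.981 to 0.99 among the other 8 arrays (probes are not independent). Results are therefore given on 9 arrays and on the 8 without it. The 8-array fit also used a different prior variance, as described below.

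GCH1 was higher on all 3 MELK siRNA arrays and on UBE2C siRNA replicates 2 and 3 than on any control array, and at background level on UBE2C siRNA replicate 1. The platform has 3 GCH1 probes, and 1 of them, ILMN_1812759 (assigned to transcript NM_001024071, chromosome 14), was above background on 8 arrays and passed the filter. Its normalized log2 signal was 6.33, 6.14 and 6.72 with control siRNA, a mean of 6.40 ± 0.29 (SD, n = 3). With MELK siRNA it was 7.03, 6.98 and 7.11, a mean of 7.04 ± 0.06 (SD, n = 3). The MELK siRNA arrays lay close together and above the highest control. With UBE2C siRNA it was 4.95, 7.69 and 7.15 on replicates 1, 2 and 3, a mean of 6.60 ± 1.45 (SD, n = 3) that describes none of the 3 arrays. The order of levels was thus UBE2C siRNA replicates 2 and 3, then MELK siRNA, control siRNA and last UBE2C siRNA replicate 1, and UBE2C siRNA replicate 3 lay only just above the highest MELK siRNA array. Lower RNA per cell and fewer expressing cells cannot be told apart in these bulk samples.

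The same order is seen in the deposited intensities before any correction. They were 166, 165 and 188 with control siRNA, 228, 224 and 227 with MELK siRNA, and 114, 282 and 234 with UBE2C siRNA replicates 1, 2 and 3. The GCH1 transcript was therefore dim on every array, at less than 3 times the background signal. On UBE2C siRNA replicate 1 it was not well above background, so its level there is only bounded from above.

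The remaining GCH1 probes stayed near background. ILMN_2335813 (NM_001024070) was above background on 2 arrays, with log2 signals of 4.42 to 4.79 in controls, 4.65 to 5.03 with MELK siRNA and 4.61 to 5.15 with UBE2C siRNA. ILMN_1788802 (NM_000161) was above background on 0 arrays, with 4.28 to 4.45, 4.44 to 4.86 and 4.36 to 5.60. Its highest value was on UBE2C siRNA replicate 1, the array on which ILMN_1812759 was lowest. Neither probe measured the transcript well enough to bear on the values of ILMN_1812759, and which further transcripts a probe matches was not analysed here.

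**Figure D1:**
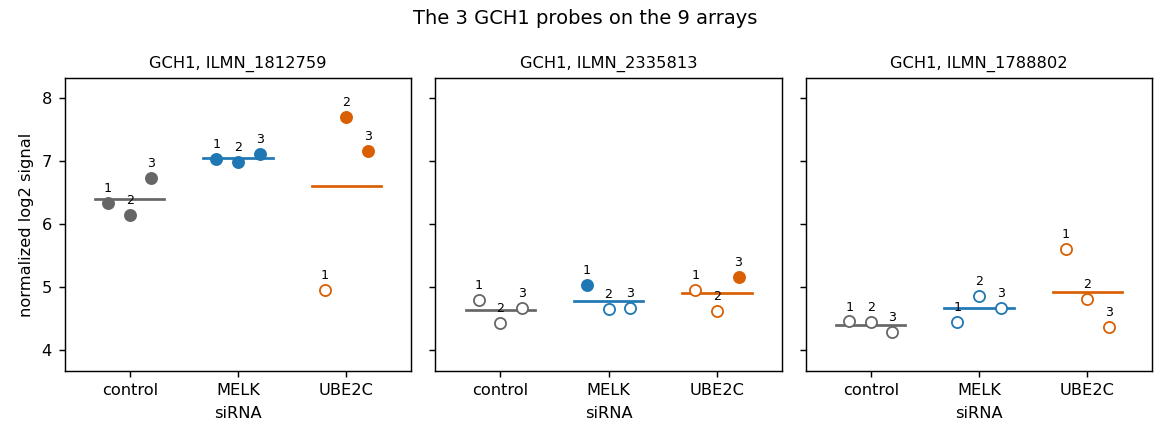
Normalized log2 signal (vertical axis) of the 3 GCH1 probes on each array, by siRNA group (horizontal axis). Points are arrays numbered by replicate, filled where above background, and bars are group means. ILMN_1812759 lies at 6.98 to 7.11 on the MELK siRNA arrays, above the controls at 6.14 to 6.72, and at 4.95 on UBE2C siRNA replicate 1.

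The comparison of MELK siRNA with control siRNA was not the one GCH1 was picked on, although it shares the control arrays with it. Low control readings would favour both the choice and this difference, so the p-values below are not independent of the choice. The 8-array fit also leaves out the array that the choice set apart. GCH1 differed by 0.64 on the log2 scale, 1.56-fold (SE 0.60, 95% interval -0.72 to 2.0), and limma on 9 arrays did not call it (adjusted p = 0.999). In the 8-array fit, in which limma's prior variance depends on signal and is estimated robustly, the same difference had an SE of 0.18, a 95% interval of 0.26 to 1.03 and an adjusted p of 0.0467 in limma. That call is near the threshold. It was lost when any of 7 of the 8 arrays was left out (limma adjusted p from 0.0551 to 0.146) and held without control siRNA replicate 3 (0.80, limma adjusted p = 0.0217). It was also lost with median scaling (0.69), with no filter (0.64) and with the authors' processed values (0.35), at limma adjusted p of 0.0834, 0.0981 and 0.0601. Without UBE2C siRNA replicate 1 but with the prior of the 9-array fit, GCH1 was not called (limma adjusted p = 0.127). The exact two-sided permutation p was 0.1, the smallest that 3 against 3 arrays can give.

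Against control siRNA, UBE2C siRNA replicates 2 and 3 differed by 1.29 and 0.75, and replicate 1 read -1.44, at background level. On 9 arrays the log2 difference was 0.20 (SE 0.60), which turned to -0.34 without replicate 2 and -0.08 without replicate 3. On 8 arrays it was 1.02 (SE 0.20, 2.03-fold). These values chose the gene and are not tested.

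GCHFR, the GCH1 feedback regulatory protein, was measured by ILMN_1694780 (NM_005258, chromosome 15), above background on 9 arrays. Its log2 signal was 10.45, 10.43 and 10.04 with control siRNA and 9.98, 10.09 and 10.18 with MELK siRNA. The groups overlapped through control replicate 3. The difference was -0.22 (SE 0.11, 95% interval -0.46 to 0.02) in the 8-array fit and was not called (limma adjusted p = 0.263, and 0.999 on 9 arrays). With UBE2C siRNA it was 8.16, 10.20 and 9.98 on replicates 1, 2 and 3. Replicate 1 stood at -2.15 from the control mean in log2 units, replicate 2 lay within the control range and replicate 3 just under it, so the 9-array difference of -0.86 (SE 0.47) was -0.22 (SE 0.13) on 8 arrays.

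PTS, the second enzyme, was higher in both knockdowns on both of its probes. The PTS difference was smaller than that of GCH1 with MELK siRNA and on UBE2C siRNA replicates 2 and 3. With UBE2C siRNA on 9 arrays it was larger, 0.40 against 0.20. ILMN_2162328 (NM_000317, chromosome 11) had log2 signals of 11.99, 11.76 and 11.88 with control siRNA, 12.26, 12.10 and 12.04 with MELK siRNA and 12.60, 12.15 and 12.09 with UBE2C siRNA. All 6 knockdown arrays lay above all 3 controls. ILMN_1720322, assigned to the same transcript, had 10.30, 9.87 and 10.40 with control siRNA, 10.73, 10.53 and 10.66 with MELK siRNA and 10.41, 10.70 and 10.74 with UBE2C siRNA. Here too no knockdown array overlapped the controls, although UBE2C siRNA replicate 1 was nearly level with control replicate 3.

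With MELK siRNA the PTS difference was 0.26 on the first probe (SE 0.17 on 9 arrays, limma adjusted p = 0.97). In the 8-array fit the SE was 0.08, the 95% interval 0.08 to 0.43 and the limma adjusted p 0.0756, so PTS was not called. The second probe gave 0.45, and with the mean of both probes the 8-array difference was 0.35 and passed the threshold (limma adjusted p = 0.043). The exact two-sided permutation p was 0.1 for each probe, the smallest 3 against 3 arrays allow. With UBE2C siRNA the difference was 0.40 (SE 0.17) on 9 arrays and 0.24 (SE 0.09) on 8, and 0.43 and 0.53 on the second probe.

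SPR, the last enzyme of synthesis, had no such difference with MELK siRNA. ILMN_1705849 (NM_003124, chromosome 2) had log2 signals of 9.67, 9.78 and 9.70 with control siRNA and 9.91, 9.67 and 9.63 with MELK siRNA, which overlapped. The difference was 0.02 in the 8-array fit, with a 95% interval of -0.19 to 0.23 (limma adjusted p = 0.936). With UBE2C siRNA it was 10.62, 9.67 and 9.52. Replicate 1 was thus 0.90 above the control mean, the opposite direction to GCH1 and GCHFR on that array, and replicates 2 and 3 were at or below the lowest control, with a mean difference of -0.12 (SE 0.11).

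QDPR, which regenerates the cofactor, had the smallest residual spread of the 6 genes on 9 arrays. ILMN_1672443 (NM_000320, chromosome 4) had log2 signals of 10.31, 10.22 and 10.16 with control siRNA, 10.30, 10.28 and 10.41 with MELK siRNA and 10.50, 10.32 and 10.45 with UBE2C siRNA. The UBE2C siRNA arrays lay above the controls, replicate 2 by the least, and the MELK siRNA arrays overlapped them. The residual SD of QDPR was 0.08 on both 9 and 8 arrays, against 0.85 and 0.25 for GCH1. Its difference with MELK siRNA was 0.10 (95% interval -0.08 to 0.29, limma adjusted p = 0.542 on 8 arrays).

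PCBD1, the dehydratase, has 2 probes on chromosome 10, both assigned to NM_000281. ILMN_1786105 had log2 signals of 11.76, 11.65 and 11.56 with control siRNA, 11.78, 11.68 and 11.77 with MELK siRNA and 12.27, 11.71 and 11.61 with UBE2C siRNA. ILMN_1795906 had 11.02, 11.09 and 11.32, then 10.84, 11.05 and 11.04, then 9.27, 11.03 and 11.03. The groups overlapped on both probes, and the MELK siRNA difference was 0.09 on the first (95% interval -0.08 to 0.25, limma adjusted p = 0.57 on 8 arrays) and -0.16 on the second.

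On UBE2C siRNA replicate 1 the PCBD1 probes moved apart, to 0.62 from the control mean on one and -1.87 on the other. Their difference was 3.0 log2 units there and 0.24 to 0.93 on the other 8 arrays. The PTS probes differed by 2.19 on that array and by 1.36 to 1.89 on the others. GCHFR and the GCH1 probe ILMN_1812759 had their lowest signal on that array. GCHFR has no second probe, and no other GCH1 probe was above background there to set beside it. The departure of replicate 1 from the mean of replicates 2 and 3, on the 1 probe used for each gene, was -1.93 for GCHFR and 1.02 for SPR. It was 0.61 for PCBD1, 0.48 for PTS and 0.11 for QDPR, while its median absolute size over all genes was 0.67. On the second probes of PTS and PCBD1 replicate 1 lay below the others instead. It read 10.41 against 10.70 and 10.74 for PTS, and 9.27 against 11.03 and 11.03 for PCBD1. For GCH1 the difference computed from the background-level reading was -2.46, which shows its direction but is not a measured size. The share of this array's general departure in the low GCH1 value was not tested.

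**Figure D2:**
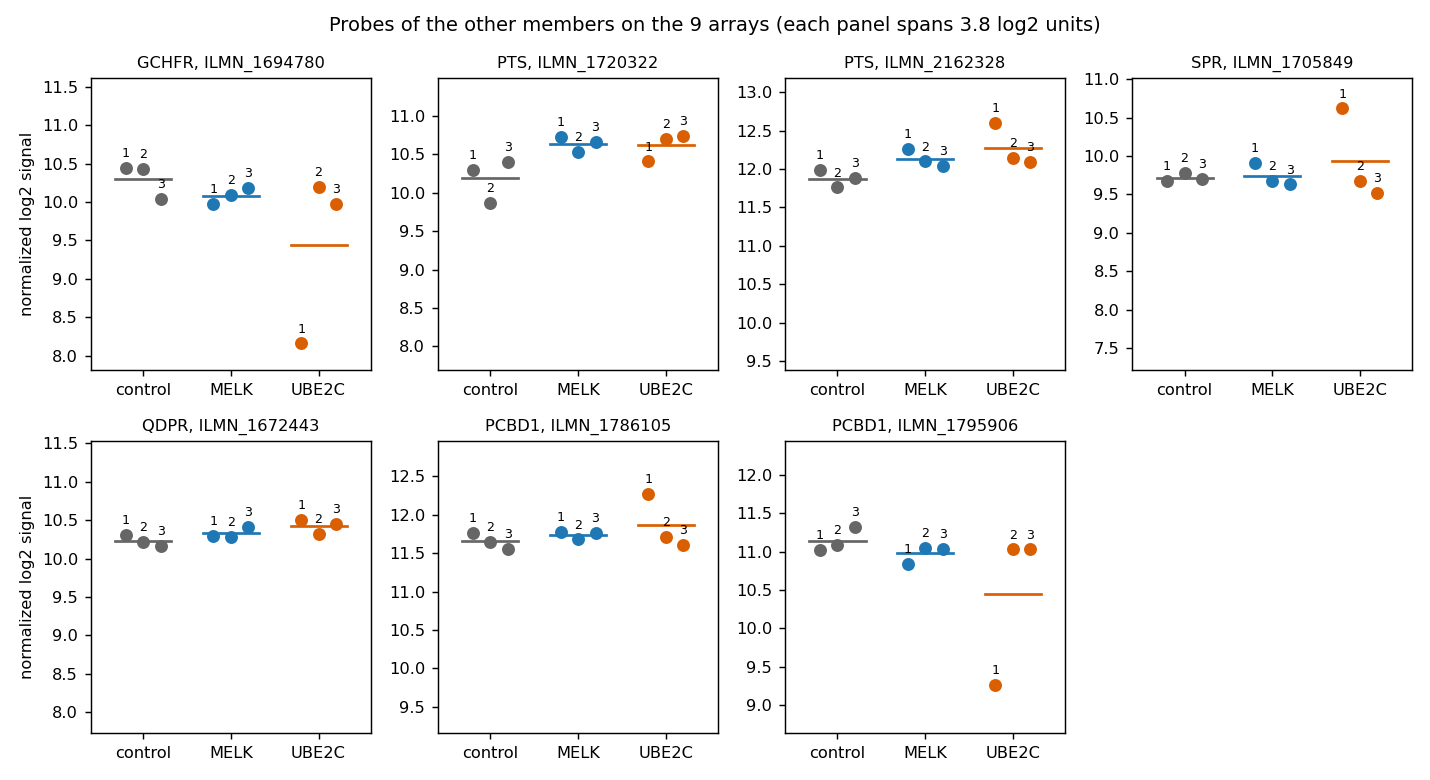
Normalized log2 signal (vertical axis) of the probes of GCHFR, PTS, SPR, QDPR and PCBD1 on each array by siRNA group, with replicate numbers on the points and bars for group means; every panel spans the same number of log2 units. Both PTS probes lie above the controls on all knockdown arrays, and UBE2C siRNA replicate 1 lies at -2.15 from the control mean for GCHFR and moves in opposite directions on the PCBD1 probes.

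Of the 10 probes, 8 passed the filter on low signal, at least 1 for each gene. Taking 1 probe for each gene, 2 of the 6 genes, GCH1 and PTS, were higher on all MELK siRNA arrays than on all controls, 0 were lower and 4 overlapped. Over all 11428 genes tested, 13.8% lay entirely higher and 11.9% entirely lower in that comparison, 25.7% in all. Both probes left out of this count, of PTS and PCBD1, had the same placement as the probe used for their gene. GCH1 was picked for being high on UBE2C siRNA replicates 2 and 3 and is left out of the next counts, which come from the same comparison and are a description. Of the other 5 genes, PTS and QDPR lay entirely higher on those 2 arrays and SPR entirely lower, where 17.3% and 21.6% of all genes did. With 3 UBE2C siRNA arrays PTS and QDPR lay entirely higher, where 11.4% of all genes did, and 0 lay entirely lower, where 7.79% did. For MELK siRNA, limma called 0 of the 6 members on 9 arrays where 0% of all genes were called, and 0 members had an unadjusted p under 0.05, where 5.39% of all genes did. On 8 arrays limma called 1 member, GCH1, where 5.51% of all genes were called (2.29% higher and 3.22% lower), and GCH1 and PTS had an unadjusted p under 0.05, where 22.1% of all genes did. GCH1 was picked against the same control arrays, so its part in these MELK siRNA counts is not independent of the choice. Of the other 5 genes, PTS alone lay entirely higher and alone had an unadjusted p under 0.05 on 8 arrays, and 0 were called. The median log2 difference of the members was 0.09 with MELK siRNA, with 0.00 over all genes, and 0.08 with UBE2C siRNA on 8 arrays, with -0.02 over all genes. Scaling the arrays to a common median in place of common quantiles moved the all-gene median with MELK siRNA to 0.09 and gave PTS 0.43, QDPR 0.25, PCBD1 0.27, SPR 0.16 and GCHFR -0.07, none called on 9 or 8 arrays by limma. With UBE2C siRNA it gave PTS 0.72 on 9 arrays, which include replicate 1, and 0.41 on 8, and QDPR 0.41 and 0.25. The all-gene median was 0.11 and 0.04 there.

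**Figure D3:**
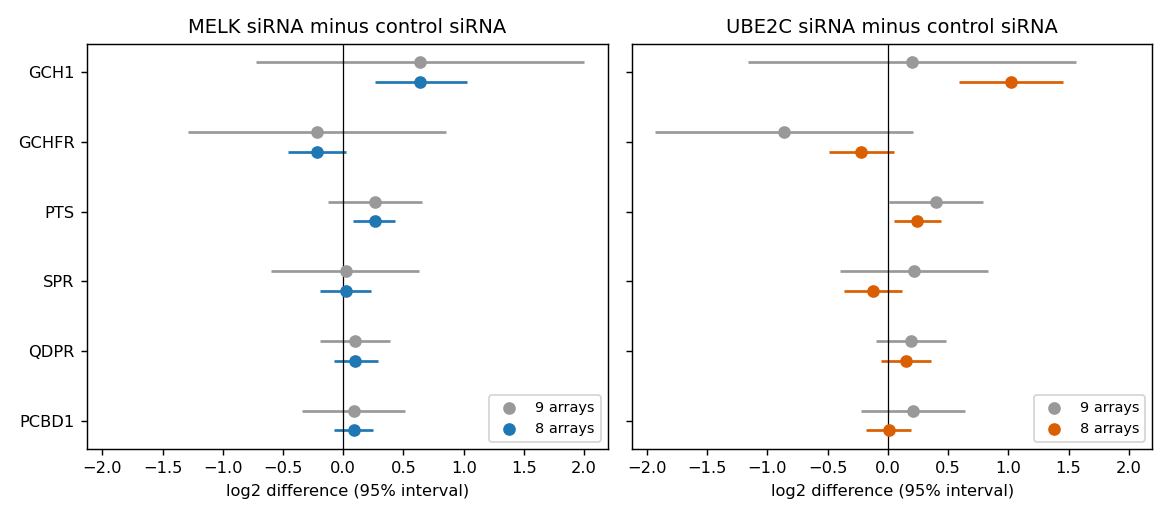
Log2 difference of each knockdown from control siRNA (horizontal axis) for the 6 members (vertical axis), with 95% intervals from limma on 9 arrays (grey) and on the 8 arrays without UBE2C siRNA replicate 1 (colour). The 8-array fit also used a prior variance that depends on signal and is estimated robustly. GCH1 is at 0.64 with MELK siRNA in both fits and moves from 0.20 to 1.02 with UBE2C siRNA; the UBE2C siRNA panel is descriptive.

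Genes around the pathway were grouped into 6 further lists by function. In the GTP supply list, IMPDH1, an inosine monophosphate dehydrogenase of guanine nucleotide synthesis, fell in both knockdowns in the 8-array fit, and the other 14 genes were not called, where 5.51% of all genes were called with MELK siRNA and 4.46% with UBE2C siRNA. An unadjusted p under 0.05 was reached by 5 of the 15 genes in each comparison, where 22.1% and 22.7% of all genes reached it. IMPDH1 (probe ILMN_1676515) had log2 signals of 11.11, 10.98 and 10.96 with control siRNA, 10.64, 10.42 and 10.62 with MELK siRNA and 10.91, 10.48 and 10.76 with UBE2C siRNA, every knockdown array lying below every control. The difference was -0.46 with MELK siRNA (SE 0.10, limma adjusted p = 0.0127) and -0.40 with UBE2C siRNA (SE 0.11, limma adjusted p = 0.0452) on 8 arrays. On 9 arrays neither was called (limma adjusted p = 0.898 and 0.477). The MELK siRNA call was lost without MELK siRNA replicate 2 (limma adjusted p = 0.0943) and held with each of the other 7 arrays left out. The UBE2C siRNA call was lost without control siRNA replicates 1 or 2, MELK siRNA replicate 2, or UBE2C siRNA replicates 2 or 3 (limma adjusted p = 0.105, 0.0805, 0.0606, 0.428 and 0.115), with differences of -0.25 to -0.54 over all arrays left out. With MELK siRNA, 2 further IMPDH1 probes also lay below all controls, ILMN_2388363 at -0.40 and ILMN_3306977 at -0.69, and with UBE2C siRNA replicates 2 and 3 both overlapped them (-0.20 and -0.07). The remaining probe, ILMN_1690343, was above background on 3 arrays and overlapped in both knockdowns. IMPDH2, the second isoenzyme gene, differed by 0.09 and -0.02, and GMPS, the GMP synthase, by 0.18 and 0.23, none called; GMPS stood at 6.77 on UBE2C siRNA replicate 1 and at 10.34 to 11.03 on the other 8 arrays. PRPS2, a phosphoribosyl pyrophosphate synthetase, differed most upwards with MELK siRNA (0.30, limma adjusted p = 0.0673) and lay above every control on all knockdown arrays. PAICS and NME2 lay below every control on all knockdown arrays, on the probe used for each. PAICS differed by -0.24 and -0.28 on 8 arrays (limma adjusted p = 0.0601 and 0.0576). NME2 differed by -0.31 and -0.37 (limma adjusted p = 0.0991 and 0.0818).

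Of 12 folate one-carbon genes tested, limma called 0 with MELK siRNA on 8 arrays, where 5.51% of all genes were called. With MELK siRNA 2 of the 12 had an unadjusted p under 0.05, where 22.1% of all genes did. With UBE2C siRNA limma called 1, where 4.46% of all genes were called (1.68% higher and 2.78% lower). With UBE2C siRNA 3 of the 12 had an unadjusted p under 0.05, where 22.7% of all genes did. The called gene, MTHFD2, a mitochondrial folate dehydrogenase, rose by 0.49 (SE 0.11, limma adjusted p = 0.0252). Its log2 signals were 9.86, 9.76 and 9.88 with control siRNA, 10.20, 9.97 and 10.32 with MELK siRNA and 10.69, 10.40 and 10.24 with UBE2C siRNA. Knockdown and control arrays did not overlap, and the difference with MELK siRNA was 0.33 (limma adjusted p = 0.0669). The UBE2C siRNA call was lost without control siRNA replicate 2, UBE2C siRNA replicate 2 or UBE2C siRNA replicate 3 (limma adjusted p = 0.0721, 0.28 and 0.127), and was not made on 9 arrays (limma adjusted p = 0.397). MTRR, the methionine synthase reductase, differed by 0.30 and 0.35 and MTR, the synthase itself, by -0.23 and -0.05.

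Among the cofactor-dependent enzymes, TH, the tyrosine hydroxylase, was the 1 gene of 7 with a probe that passed the filter. Its log2 signal ranged from 6.38 to 7.01 over all arrays and did not differ (0.07 and -0.14, limma adjusted p = 0.864 and 0.741 on 8 arrays). TPH1, TPH2, NOS1, NOS3 and AGMO were above background on 0 arrays, and NOS2 on 1 at most. Of 6 genes for salvage and side reactions, limma called 0 in both comparisons on 8 arrays. Over all genes it called 5.51% with MELK siRNA and 4.46% with UBE2C siRNA. In each comparison 1 of the 6 had an unadjusted p under 0.05, where 22.1% and 22.7% of all genes did. DHFR2, a mitochondrial dihydrofolate reductase, was lower on all MELK siRNA arrays (7.16 to 7.19) than on all controls (7.55 to 7.84), a difference of -0.48 (SE 0.14, limma adjusted p = 0.0584). It was highest on UBE2C siRNA replicate 1, at 8.38, and 7.02 and 7.38 on the other 2 arrays of that group.

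Of 16 cytokine-induced genes tested, limma called 0 in both comparisons on 8 arrays. Over all genes it called 5.51% with MELK siRNA and 4.46% with UBE2C siRNA. An unadjusted p under 0.05 was reached by 3 of the 16 with MELK siRNA and 2 with UBE2C siRNA. Over all genes 22.1% and 22.7% reached it. The interferon-induced transcription factor gene IRF1 differed by -0.18 and -0.20, the mitochondrial superoxide dismutase gene SOD2 by 0.13 and -0.01 and the NF-kB inhibitor gene NFKBIA by -0.03 and 0.02 for MELK and UBE2C siRNA. The upward extreme with MELK siRNA was ICAM1, an adhesion molecule (0.66, SE 0.27, limma adjusted p = 0.153), whose arrays overlapped. The immunoproteasome subunit gene PSMB8 had 0.34 and 0.36 without overlap on 8 arrays. On UBE2C siRNA replicate 1 PSMB8 was at 8.33, under the lowest control at 8.54. SOCS3 (0.35) and KYNU (0.23) also lay above all controls on every MELK siRNA array, where 13.8% of all genes did. No gene of the list lay entirely below them there. CXCL8 lay above all controls on every UBE2C siRNA array (0.54 on 9 arrays, 0.31 on 8), where 11.4% of all genes did. WARS1 lay below them on UBE2C siRNA replicates 2 and 3 (-0.16). Of 19 genes of ferroptosis defence and iron handling limma also called 0 in both comparisons. In each, 1 had an unadjusted p under 0.05. The shares of all genes that were called and that were under that p are those given above. The lipid peroxidase gene GPX4 differed by -0.08 and -0.09 on 8 arrays, but its log2 signal was 9.58 on UBE2C siRNA replicate 1 and 13.06 to 13.45 on the other 8 arrays. On 9 arrays limma called 0 genes in all of these lists in both comparisons, where 0% of all genes were called for MELK siRNA and 0.00875% for UBE2C siRNA. An unadjusted p under 0.05 was reached there by 1 GTP supply gene with MELK siRNA, where 5.39% of all genes reached it. With UBE2C siRNA 1 gene each of the GTP supply, folate and cytokine-induced lists reached it, where 11.1% of all genes did. The median log2 difference of each of the 6 lists on 8 arrays lay between 0.07 and 0.11 with MELK siRNA, where the median of all genes was 0.00. With UBE2C siRNA it was 0.10 for GTP supply, 0.07 for folate genes, -0.04 for the salvage, cytokine-induced and ferroptosis lists and -0.14 for TH alone, where that of all genes was -0.02.

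**Figure D4:**
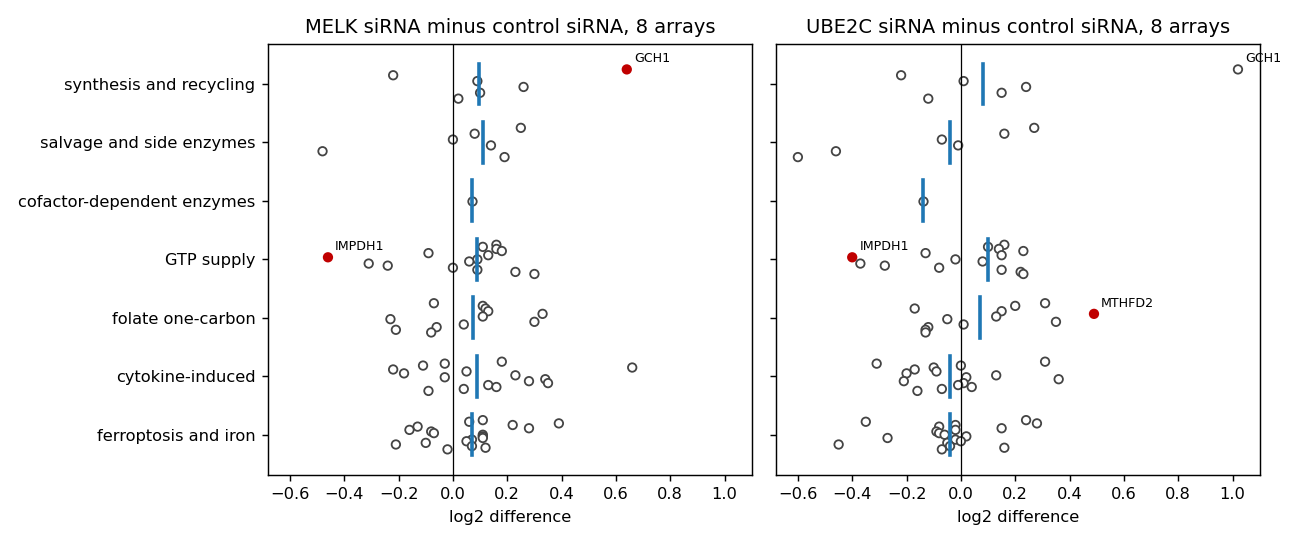
Log2 difference from control siRNA (horizontal axis) of each tested gene in the 7 lists (vertical axis) on 8 arrays, for MELK siRNA (left) and UBE2C siRNA (right). Filled red points passed an adjusted p of 0.05, GCH1 is named in both panels and not tested on the right, and bars are list medians. IMPDH1 is at -0.46 and -0.40, and MTHFD2 at 0.49 on the right.

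The genes most like GCH1 were found by the root mean square difference of log2 values, each gene centred on its own control mean. Over 9 arrays they were SPAST (0.24 log2 units), GTF2E1 (0.27), DPY19L4 (0.28), PTGES3 (0.29) and SOCS4 (0.32). This ranking takes the GCH1 reading on UBE2C siRNA replicate 1, -1.44, at face value, although it was not above background, so the order of these genes is uncertain. Chosen for likeness to GCH1 with that array included, each of them was low on it, from -1.60 for SPAST to -1.09 for DPY19L4. Over the 8 arrays without it they were GOLT1B (0.09), CYCSP52 (0.19), RAB18 (0.19), THEM5 (0.21) and HYCC1 (0.23), and on the left-out array these ranged from -0.33 for GOLT1B to 1.44 for THEM5. The 2 sets had 0 genes in common, so the genes named depend on whether that array enters. Ranked by Pearson's r instead, SPAST, GTF2E1 and DPY19L4 stayed among the 5 over 9 arrays (r of 0.967, 0.970 and 0.981), and GOLT1B led over 8 arrays (r of 0.982, a description without a test).

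**Figure D5:**
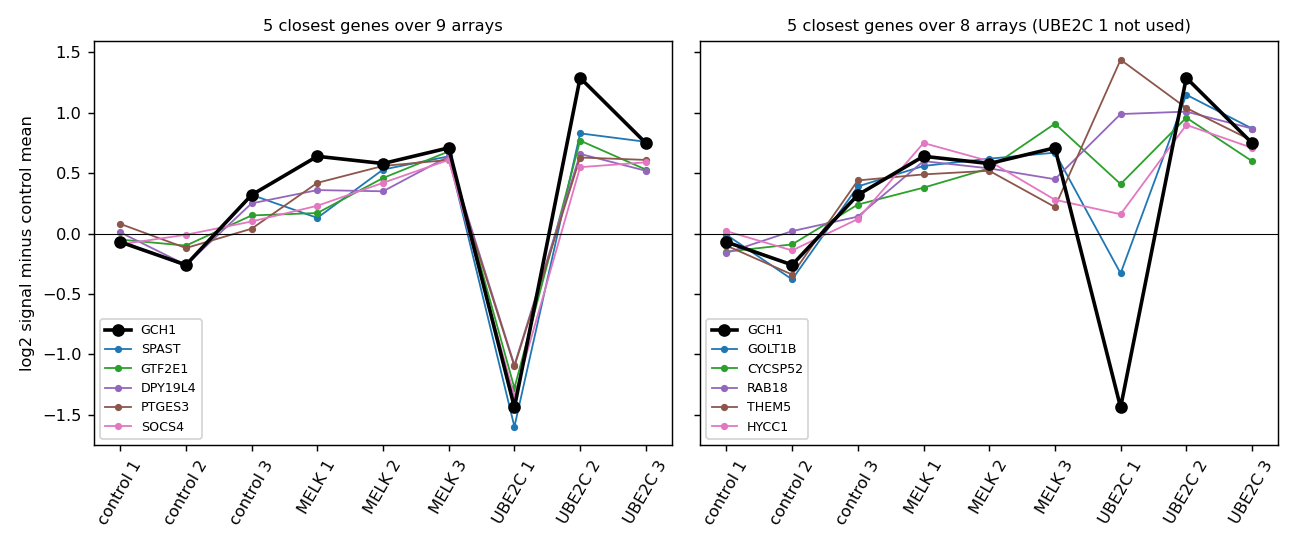
Log2 signal minus the gene's control mean (vertical axis) on each array (horizontal axis) for GCH1 (black) and its 5 closest genes over 9 arrays (left) and over 8 (right). GCH1 is drawn at -1.44, a reading not above background, on UBE2C siRNA replicate 1. The genes on the left, chosen with that array included, are at -1.60 to -1.09 there, and those on the right lie between -0.33 and 1.44.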

How the data were processed

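Per the labels, RNA from PC3 cells was amplified, biotin-labelled and hybridized to Illumina bead arrays, 3 per siRNA group. The deposited intensity of each probe is linear, neither background-subtracted nor scaled, as its values show; per the file headers each has a detection p-value, computed by a method that the sources used here do not state. A second deposited table by the authors is in log2 with equal quantiles on every array (median 6.78); the submitters' processing notes name lumi with no version.

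Intensities were corrected and quantile-normalized with neqc (offset 16) in limma 3.58.1 under R 4.3.3. Because the detection p was small below background too, a probe was kept when above background on at least 3 arrays, with p under 0.01 and a signal over the median of probes with p above 0.9; 19511 of 47323 were kept. Each gene took its kept probe with the highest mean, giving 11428 genes. Symbols come from the platform annotation, and 30074 of 30113 probes with 1 gene matched RefSeq (GRCh38.p14) by gene number. The main model, lmFit and eBayes, used 3 group means on all 9 arrays, with Benjamini-Hochberg adjustment over all genes and a threshold of 0.05. The 8-array fit, with trended robust eBayes, was taken up with its counts known. Members, the 7 lists (102 symbols), the tests and the alternatives were chosen with earlier results of these data known. Named genes are the members, MELK, UBE2C, the 5 closest to GCH1, the called list genes and further list genes. The further ones were chosen for their difference or their function, and not every extreme gene of a list is named. Genes of the lists without a kept probe were not analysed here. Fits were tested on simulated data. The number of arrays limits the precision, and scan batches were not analysed here.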

Additional observations from a re-analysis of the deposited data

How the results depend on the processing

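On 9 arrays the GCH1 difference with MELK siRNA was not called and stayed positive under all alternatives that gave a value (a filter for detection on all arrays removed the gene), at 0.35 with the authors' processed values and 0.52 to 0.80 with 1 array left out. It was 0.64 and called only without UBE2C siRNA replicate 1 together with the trended robust prior, which called 1 member and, over all genes, 630 with MELK siRNA and 510 with UBE2C siRNA. Weighting the arrays called 126 and 528 genes. With 1 array left out, 0 to 1 gene was called in either comparison and 0 members. UBE2C siRNA called 0 genes in place of 1 with median scaling, the mean of probes, only 2 groups in the fit and the replicate block; the GCH1 difference there ran from -0.34 to 1.02 with 1 array left out and was 1.15 with weighted arrays. In the 8-array fit the GCH1 call with MELK siRNA was lost with median scaling (0.69, limma adjusted p = 0.0834), the authors' processed values (0.35, 0.0601) and no filter (0.64, 0.0981), leaving 0 members, and the mean of probes called 2 members. Left-out arrays gave 0.52 to 0.80, 0 to 1 members and 78 to 692 genes for MELK siRNA, and 0.75 to 1.29 and 2 to 755 genes for UBE2C siRNA. MELK siRNA called 59 genes (45 higher, 14 lower) with median scaling, where the 8-array fit gave 262 higher and 368 lower, and 282 with no filter. UBE2C siRNA called 11 (9 higher, 2 lower), where that fit gave 192 and 318, and 211, and its GCH1 difference was 0.59 with the authors' processed values. The sign of 2 small differences with MELK siRNA turned: PCBD1 was -0.04 with the mean of probes on 9 and 8 arrays, whose probes differ in sign, and SPR was -0.01 with weighted arrays and ran from -0.07 to 0.07 with 1 array left out. The cause was not tested for the other changes.

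Whether equal replicate numbers pair the arrays was not settled. The correlation of deviations ran from -0.125 to 0.245 for same-numbered arrays and from -0.244 to 0.227 for the others. Deviations were taken from group means that include UBE2C siRNA replicate 1, which limits what its group can show. With the replicate block in the 8-array fit, GCH1 kept its call with MELK siRNA (limma adjusted p = 0.0476), UBE2C siRNA called 337 genes in place of 510, and MELK siRNA 731 in place of 630. GCH1 was dim, so its differences depend on the background correction: an offset of 50 gave 0.48 with MELK siRNA. Added alternatives of the 8-array fit were chosen after seeing the data.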
